A study of Rattus norvegicus with 98 samples.

Results

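The basolateral amygdala (BLA) was represented by 4 H3K27ac ChIP-seq peak lists, 2 from rats given fluoxetine (FT) and 2 from rats given water (Sham), out of 94 peak lists from 25 brain regions. These 4 lists were taken by their titles, which name the region, the treatment and the replicate. All animals were male Long-Evans rats, labelled as 2 months old. By the paper's methods this is about the age at assignment to the groups, before the 6 weeks of treatment. The FT group received fluoxetine at 18 mg/kg body weight in the drinking water for 6 weeks, and the Sham group received water alone. Tissue was micro-punched from frozen brain sections and pooled across animals, so that each list is a mixture of animals and of all cell types in the punch. With pooled tissue, a change in the cells that make up the punch and a change of acetylation within a cell type cannot be told apart.

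H3K27ac is an acetyl mark on histone H3 that lies on nucleosomes beside active promoters and enhancers, and a peak in such a list marks a candidate regulatory element. The BLA holds excitatory principal neurons and inhibitory interneurons, receives dense serotonin fibres from the raphe, and takes part in the learning of fear and reward. Fluoxetine blocks the serotonin transporter and so prolongs serotonin signalling in regions of this kind.

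Each deposited row is a peak with its Rn5 position, a maximal score, the centre, a −log10 p-value, a normalised tag count in whole numbers and a false discovery rate in percent. Read depth is unknown, and the lists carry no read counts, so values are compared by presence, width and rank. The labelled tissue could not be set against marker genes, because no Rn5 gene annotation was used. It was set against the other lists instead, by the Jaccard index of occupied 1 kb windows (shared windows over windows in either list) after every list was cut to at most its best 31893 peaks by maximal score. For all 4 BLA lists the closest of all other lists was a BLA list. FT replicate 1 and FT replicate 2 were closest to each other, with a Jaccard index of 0.801. Sham replicate 1 was closest to FT replicate 2 at 0.713 and to FT replicate 1 at 0.707, and its index with Sham replicate 2 was 0.653. The closest list of another region was a Sham list of the ventral dentate gyrus for both Sham libraries (0.665 for replicate 1 and 0.608 for replicate 2) and an FT list of the centromedial amygdala (CMA) for both FT libraries (0.657 and 0.666).

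Sham replicate 2 stood apart from the other 3 libraries. It had the shortest list, the narrowest peaks and the lowest Jaccard indices within the region, from 0.607 with FT replicate 2 to 0.653 with Sham replicate 1. Seen from FT replicates 1 and 2 it ranked only 20 and 25 among the nearest lists, behind lists of other regions. Its equal-size list occupied 46862 windows, against 56593 in Sham replicate 1 and 62542 and 63426 in the FT lists. Unequal window numbers lower the highest Jaccard index possible, so its low indices and ranks are not independent of its narrow peaks. The main counts, widths, positions, ranks and activity elsewhere are therefore also given without it, while chromosome shares, named loci, overlaps with single regions and the order among regions rest on all 4 lists.

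The first comparison asked whether fluoxetine-treated BLA carried more acetylated sequence. Sham replicate 1 held 43143 peaks, Sham replicate 2 held 31893, FT replicate 1 held 50699 and FT replicate 2 held 51269. Each FT list was longer than either Sham list, and the gap between the Sham lists was larger than the gap from Sham replicate 1 to either FT list. The group means were 37518 ± 7955 peaks in Sham and 50984 ± 403 in FT (SD, n = 2 each), a log2 ratio of 0.44. Covered length was 66.8 Mb and 46.9 Mb in the Sham lists and 82.3 Mb and 85.0 Mb in the FT lists, with a log2 ratio of means of 0.56. An exact two-sided permutation test gave p = 0.333 for each, which is the smallest value that 2 libraries against 2 allow. Without Sham replicate 2 the log2 ratio of peak number was 0.24 and that of covered length 0.32. How much of the difference in list length comes from sequencing depth or enrichment was not tested.

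**Figure D1:**
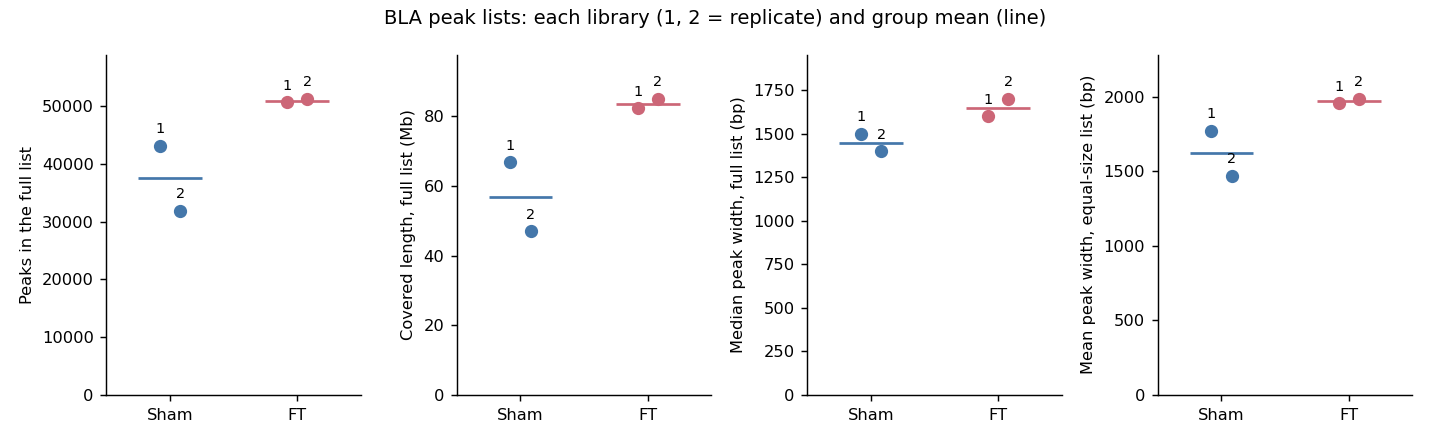
Peaks per list, covered length in Mb, median peak width in bp (full lists) and mean peak width in bp (lists cut to 31893 peaks), with a point for each library marked by its replicate number and a line at the group mean (n = 2). Both FT points lie above both Sham points in each panel, and the Sham points lie farther apart than the FT points except in median width.

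FT peaks were also wider. In the full lists the median peak width was 1500 bp and 1400 bp in Sham replicates 1 and 2, against 1600 bp and 1700 bp in FT replicates 1 and 2, so the groups did not overlap. After cutting every list to its 31893 peaks of highest maximal score (the length of the shortest BLA list), the medians were 1700 bp, 1400 bp, 1900 bp and 2000 bp in the same order. The mean widths of these equal-size lists were 1773 bp and 1472 bp in Sham and 1957 bp and 1986 bp in FT. The log2 ratio of the group medians was 0.33 and the exact two-sided permutation p was again 0.333, the smallest possible. Peaks of 3 kb or wider were 1.74% and 0.862% of the equal-size Sham lists and 2.56% and 2.77% of the FT lists. Without Sham replicate 2, the log2 ratio of the equal-size medians was 0.20.

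The same elements could be followed across libraries. When overlapping peaks of the 4 full lists were merged, 60611 elements resulted, and 28108 of these had exactly 1 peak in each library. Over these matched elements the mean width was 1803 bp in Sham replicate 1, 1543 bp in Sham replicate 2, 1957 bp in FT replicate 1 and 1990 bp in FT replicate 2. Both FT peaks were wider than both Sham peaks at 17020 elements (60.6% of those matched), and both Sham peaks were wider at 105 (0.374%). The 2 other ways to pair the libraries served as the reference. Pairing by replicate number parted 1626 elements, and the crossed pairing (FT replicate 1 with Sham replicate 2 against FT replicate 2 with Sham replicate 1) parted 2656. The treatment pairing gave the largest of the 3 counts, for which the exact permutation p is 0.333 and cannot be lower. Without Sham replicate 2, 37321 elements had exactly 1 peak in each of the other 3 lists. Both FT peaks were wider than that of Sham replicate 1 at 23106 of them (61.9%) and narrower at 2528 (6.77%). Setting FT replicate 1 or FT replicate 2 against the other 2 lists in the same way parted 13220 and 16160 elements. The log2 ratio of the treatment comparison to their mean was 0.80, against 3.00 for the treatment pairing of 4 lists. A single list against 2 has fewer conditions to meet, so 61.9% and 60.6% are not on the same scale.

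The mean width difference in base pairs was larger at the weaker matched elements. In the 25% of elements with the lowest maximal scores, FT peaks were on average 378 bp wider than Sham peaks, and in the 25% with the highest scores 181 bp wider. The share of elements at which both FT peaks were wider did not follow this order, at 54.8%, 62.4%, 65.2% and 59.8% from the lowest to the highest 25% class. The Sham libraries differed from each other by 310 bp in the lowest 25% and 139 bp in the highest 25%, with replicate 1 the wider. FT replicate 1 exceeded Sham replicate 1 by 196 bp and 105 bp in the same classes, while the FT libraries differed by 52.8 bp and 14.0 bp. The difference in width between the 2 Sham libraries was thus larger than that between Sham replicate 1 and FT replicate 1 in both classes.

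The next comparison asked which stretches of the genome were acetylated in one treatment and not in the other. The genome was cut into 1 kb windows, and a window counted as occupied when peaks covered at least 50% of it. Windows occupied in both FT lists and in neither Sham list are called FT-held, and the reverse Sham-held. In the full lists 100424 windows were occupied in at least 1 library, and 41634 of them (41.5%) in all 4. FT-held windows numbered 13361 (13.3% of all occupied windows) and Sham-held windows 342 (0.341%). The replicate pairing parted 2044 windows and the crossed pairing 2751. The treatment pairing therefore exceeded the mean of the other 2 by 2.51 on the log2 scale, with an exact permutation p of 0.333, the smallest that 3 pairings allow. With 1 library left out, where the lone list of a treatment is set against the mean of the other 2 lone lists, this value was 0.84 without Sham replicate 2, 1.52 without Sham replicate 1, 0.69 without FT replicate 1 and 0.62 without FT replicate 2.

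In the equal-size lists 77915 windows were occupied in at least 1 library and 38525 (49.4%) in all 4. Of these, 6801 were FT-held (8.73%) and 875 were Sham-held (1.12%), while the replicate pairing parted 1835 and the crossed pairing 2132. The log2 ratio to the other pairings was 1.95, with the same exact permutation p of 0.333. It was 0.93 without Sham replicate 2, 1.51 without Sham replicate 1 and 0.22 without either FT replicate. FT-held windows made up 88.6% of the windows that parted the treatments. That share depended on how list size was matched. When each list was cut to the same covered length of 46.9 Mb, which kept 24486 and 31893 peaks of the Sham lists and 22173 and 21883 of the FT lists, 3347 windows were FT-held (5.21% of occupied windows) and 2372 Sham-held (3.69%), an FT share of 58.5%. When only the window holding a peak's centre was counted, the numbers were 2388 and 1445, an FT share of 62.3%. In lists of the 10000 best peaks they were 1851 and 657, an FT share of 73.8%. The excess of the treatment pairing over the other pairings was 2.01 on the log2 scale at equal covered length and 0.96 for centres.

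**Figure D2:**
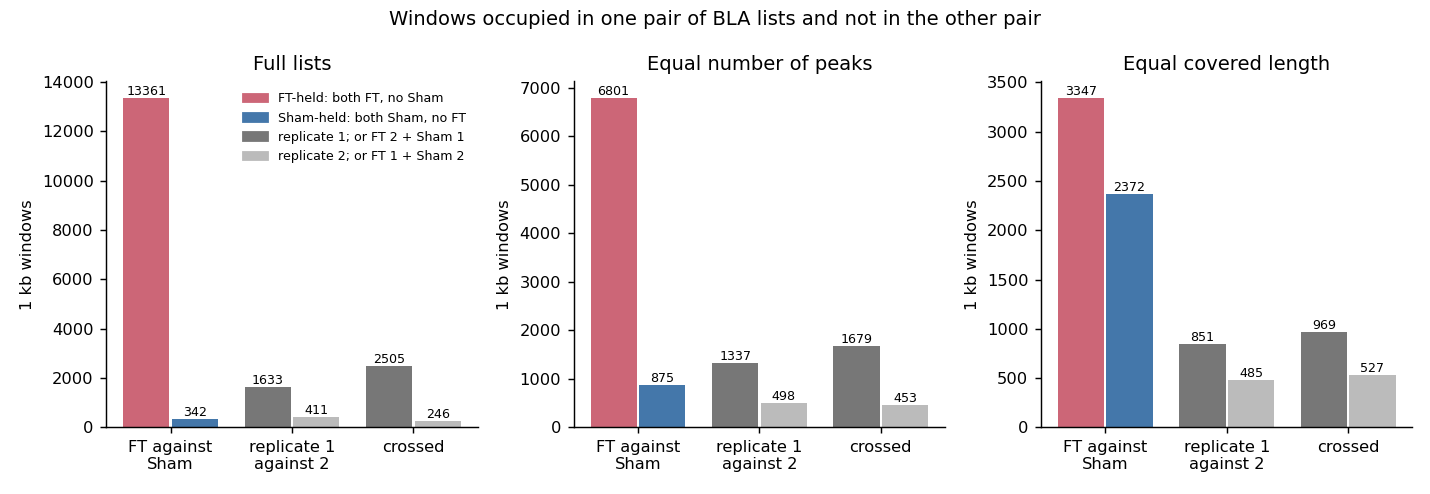
Number of 1 kb windows occupied in 1 pair of BLA lists and absent from the other pair, for the treatment pairing (coloured) and the replicate and crossed pairings (grey), in full lists, lists of equal peak number and lists of equal covered length. The treatment pairing has the tallest bar in each panel, with 13361, 6801 and 3347 FT-held windows, and the Sham-held bar grows from 342 to 875 and 2372 across the panels.

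Sham replicate 2 bore on these counts. With Sham replicate 1 alone against both FT lists, the equal-size lists gave 8585 FT-held and 4691 Sham-held windows, an FT share of 64.7%, and the full lists gave 15201 and 4272. With the other 3 lists cut to 43143 peaks, an alternative chosen after seeing the data, the counts were 11834 and 5707, and the mean peak width was 1549 bp in Sham replicate 1 against 1763 bp and 1800 bp in the FT lists. With Sham replicate 2 alone against both FT lists, 15699 windows of the equal-size lists were FT-held and 4139 Sham-held. A single list against 2 has fewer conditions to meet, so these counts are not on the scale of those from 4 lists.

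In the equal-size lists, most FT-held windows lay at the flanks of peaks that the Sham libraries also had, while in the full lists more of them lay over 1 kb from any Sham peak than were touched by one. Of the 6801 FT-held windows of the equal-size lists, 5589 (82.2%) were touched by a peak of a full Sham list, which in most cases covered less than the required 50%, and 4274 (62.8%) adjoined a window that a full Sham list occupied without being occupied there themselves. No FT peak centre fell in 4364 of them (64.2%), and a centre from both FT lists fell in 1716 (25.2%). Of the 6801, 999 (14.7%) lay more than 1 kb from any Sham peak and 565 (8.31%) more than 10 kb away. Of the 13361 FT-held windows of the full lists, 6028 (45.1%) were touched by a Sham peak, 6935 (51.9%) lay over 1 kb and 4059 (30.4%) over 10 kb from any, 6247 (46.8%) held a centre from both FT lists and 5121 (38.3%) held none. Sham-held windows of the equal-size lists had another geometry. Both Sham centres fell in 662 of the 875 (75.7%), no Sham centre fell in 86 (9.83%), and 33 (3.77%) lay over 1 kb from any FT peak. That distance is to the full FT lists, which were longer than the Sham lists. The order of the distances reversed in the full lists. Of the 342 Sham-held windows there, 207 (60.5%) lay over 1 kb and 147 (43.0%) over 10 kb from any FT peak. In the equal-size lists, windows that parted the replicates or the crossed pairs lay between the FT-held and Sham-held classes by their centres. No centre fell in 17.2% to 50.3% of them. From 0.803% to 1.10% of them lay over 1 kb from the other pair of lists, which always included a long FT list. Without Sham replicate 2, no FT centre fell in 60.3% of the 8585 FT-held windows of the equal-size lists and 14.7% lay over 1 kb from any peak of Sham replicate 1. The centre of Sham replicate 1 fell in 63.0% of the 4691 Sham-held windows, and 6.27% of these lay over 1 kb from any FT peak.

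**Figure D3:**
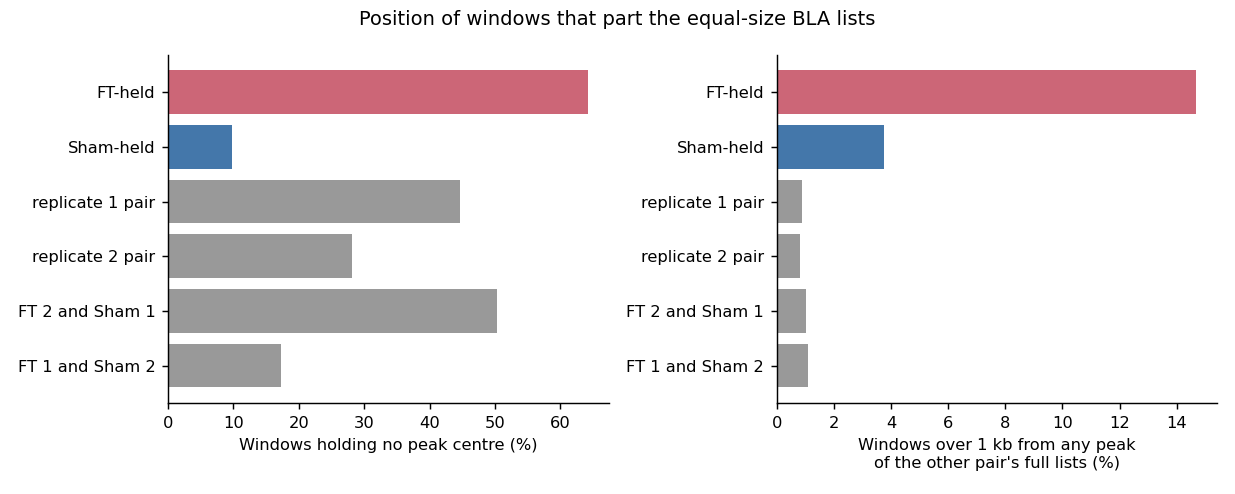
Percentage of windows that hold no peak centre of the lists that occupy them (left) and percentage lying over 1 kb from any peak of the other pair's full lists (right), for FT-held and Sham-held windows (coloured) and for windows parting the replicate and crossed pairs (grey), in equal-size lists. FT-held windows have the highest value in both panels, 64.2% and 14.7%. For Sham-held windows the distance is to the full FT lists, which are longer than the Sham lists.

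The same contrast held at equal covered length, where 84.3% of FT-held windows contained no FT centre and 70.7% of Sham-held windows contained both Sham centres. Windows without a centre were also common in some classes of the other pairings at that length. They were 67.2% of the replicate 1 pair and 72.1% of FT replicate 2 with Sham replicate 1. The replicate 2 pair had 28.7%, and FT replicate 1 with Sham replicate 2 had 18.4%. FT-held windows at equal covered length lay in peaks of median width 2100 bp in both FT lists, and Sham-held windows in peaks of 1600 bp and 1200 bp in Sham replicates 1 and 2. Because the FT lists had wider peaks, the cut to equal length left fewer of them, and 2312 of the 2372 Sham-held windows were occupied in at least 1 full FT list.

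The deposited lists held sequence below the cut for many of these windows. Of the 6801 FT-held windows of the equal-size lists, 5614 (82.5%) were FT-held in the full lists as well, and the other 1187 were occupied in the full list of Sham replicate 1. For the 875 Sham-held windows the figure was 126 (14.4%), since 579 were occupied in both full FT lists and 170 in 1 of them. Most Sham-held windows were thus also occupied in an FT library once peaks below the cut were included. The shares of 82.5% and 14.4% are unlike by construction. The cut kept all of the list of Sham replicate 2 and 73.9% of that of Sham replicate 1, but 62.9% and 62.2% of the FT lists. FT-held windows could therefore be lost to Sham replicate 1 alone.

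Windows that parted the treatments ranked low in both directions, and so did windows that parted the other pairings. Each window was given the percentile, within its own equal-size list, of the normalised tag count of the peak that covers it. FT-held windows had a median percentile of 28.7 in FT replicate 1 and 38.2 in FT replicate 2, against 70.2 and 69.2 in the same lists for windows occupied in all 4 libraries. Sham-held windows had medians of 11.4 in Sham replicate 1 and 26.0 in Sham replicate 2, against 61.1 and 59.3. Windows parting the replicate and the crossed pairing had medians of 28.7 and 9.81 in FT replicate 1 and 15.9 in FT replicate 2. In Sham replicates 1 and 2 their medians were 37.3 and 26.0. Low rank was therefore not particular to the treatment pairing. The top 10% of the list held 3.54% and 4.01% of FT-held windows and 1.14% and 1.26% of Sham-held windows. Tag counts are small whole numbers with many ties (20.4% to 38.3% of peaks of an equal-size list share its commonest value), so percentiles move in steps. Leaving out Sham replicate 2, the medians were again 28.7 and 38.2 for FT-held windows and 11.4 for Sham-held windows.

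Among the 38525 windows occupied in all 4 equal-size lists, the ranks parted the treatments only weakly. The tag-count percentile was higher in both FT lists than in both Sham lists at 8727 windows (22.7%) and lower at 7535 (19.6%). The replicate pairing parted 12282 windows and the crossed pairing 9977, so the treatment pairing exceeded their mean by 0.55 on the log2 scale (exact permutation p = 0.333, the smallest possible). Without FT replicate 2 this log2 value was −0.19, so its direction rested on that library. The split between directions followed the scale, since percentiles taken in the full lists gave 21502 windows with higher FT ranks and 1181 with higher Sham ranks, and tag counts per base of peak gave 17198 and 3245. Across these windows the Spearman correlation of percentiles was 0.973 between the FT lists, 0.928 between the Sham lists and 0.909 to 0.941 between an FT and a Sham list, as a description over windows that share libraries.

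FT-held windows were spread over all chromosomes. They made up from 7.12% of the occupied windows on chromosome X to 10.1% on chromosome 12, against 8.73% over the genome. Sham-held windows ranged from 0.807% on chromosome 20 to 1.46% on chromosome 18. FT-held windows formed 5776 runs of adjoining windows, of which 4786 (82.9%) were a single window and 34 had 3 or more. The 875 Sham-held windows formed 826 runs, none longer than 2 windows.

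Of the 5776 FT-held runs 4677 loci, and of the 826 Sham-held runs 113 loci, had no window occupied in a full list of the other treatment. The full FT lists were longer than the full Sham lists, so counts of loci in the 2 directions are unlike by construction, here and below. Among the FT-held loci, 658 had no Sham peak within 1 kb. The best ranked of these was chr10:84702001-84703000 on Rn5, which was covered for 800 bp in FT replicate 1 and 999 bp in FT replicate 2 and for 0 bp in both Sham lists. Its peaks had tag counts of 15 and 13, at percentiles of 94.97 and 95.48 of the FT lists. It was not peculiar to this region or to fluoxetine, as 20 Sham and 22 FT lists of other regions occupied it.

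The locus at chr7:11744001-11745000 was rarer. It was covered for 791 bp and 1000 bp in FT replicates 1 and 2 and for 0 bp in both Sham lists, with tag counts of 13 and 10 at percentiles of 92.0 and 88.6. No Sham list of any other region occupied it. The only other lists to do so were 2 FT lists, both of the nucleus accumbens core, where it was FT-held too. The next 4 loci were chr7:12481001-12482000, chr14:108558001-108559000, chr2:140718001-140719000 and chr6:141087001-141089000. All 4 had 0 bp covered in both Sham lists, with a lower tag-count percentile in the FT lists of 86.8 for the first pair and 82.9 for the second pair. Other regions held them in 36, 11, 64 and 16 lists.

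The longest FT-held loci without a Sham-occupied window spanned 3 windows each. At chr15:58997001-59000000 the FT lists covered 2899 bp and 2999 bp and the Sham lists 494 bp and 499 bp, from FT peaks of 4300 bp in both replicates. At chr3:131718001-131721000 the FT lists covered 2564 bp and 2192 bp and the Sham lists 435 bp and 190 bp. At chr12:8069001-8072000 they covered 2078 bp and 1796 bp against 994 bp and 700 bp, with no FT peak wider than 1500 bp. At chr7:11905001-11908000 they covered 2509 bp and 2507 bp against 600 bp in each Sham list. In all 4 cases each Sham library had part of the element, and from 57 to 80 lists of other regions occupied part of the locus.

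Sham-held loci without an FT peak within 1 kb numbered 31, and few had high ranks. The first was chr10:75219001-75220000, covered for 1000 bp and 755 bp in Sham replicates 1 and 2 and for 0 bp in both FT lists. Its tag counts were 8 and 7, at percentiles of 89.0 and 93.9 of the Sham lists, and 19 Sham and 14 FT lists of other regions occupied it. The second, chr6:135751001-135752000, was covered for 614 bp and 578 bp, had tag counts of 5 and 4, and was occupied in 6 other lists. The other 4 were chr10:28975001-28976000, chr1:144036001-144037000, chr3:43668001-43669000 and chr5:175439001-175440000, with tag counts of 3 or 4 in each Sham list.

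Among Sham-held loci, only chr18:77536001-77538000 and chrX:10561001-10563000 spanned 2 windows while clear of both full FT lists. Both had 0 bp covered in the FT lists and a tag count of 2 in each Sham library. The X-linked locus was occupied in 35 Sham lists and 6 FT lists of other regions. Next by rank came 2 strong narrow peaks on chromosome 12. At chr12:15838001-15839000 the tag counts were 29 and 20, at a percentile of 99.99 in both Sham lists, yet the peaks covered only 506 bp and 520 bp of the window and FT replicate 1 covered 400 bp of it. At chr12:17954001-17955000 the Sham lists covered 794 bp and 680 bp and the FT lists 278 bp and 196 bp, with Sham tag counts of 14 and 10.

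That last window was occupied in no list of any other region. Only 1 other clear Sham-held locus shared this property, chr1:125734001-125735000, with tag counts of 3 in both Sham lists. Among FT-held loci 7 had it, led by chr3:112392001-112393000, with tag counts of 7 in both FT lists and 564 bp and 592 bp covered against 235 bp and 0 bp in the Sham lists. The next were chr6:43393001-43394000 and chr6:47819001-47820000, with tag counts of 5 and 5 and of 5 and 4. Sham replicate 1 covered part of all 3 windows, 214 bp and 414 bp of the latter pair.

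Most windows that parted the treatments in BLA were active elsewhere in the brain. A window was called active in a region when at least 2 libraries of that region occupied it in their full lists. Of the 6801 FT-held windows, 6689 (98.4%, 95% Wilson interval 98.0% to 98.6%) were active in at least 1 of the other 24 regions and 112 in none. Of the 875 Sham-held windows, 862 (98.5%, 97.5% to 99.1%) were, and 13 were not. The intervals cover counting over windows, which are not independent. In the full lists 12895 of 13361 FT-held windows (96.5%) and 300 of 342 Sham-held windows (87.7%) were active elsewhere, and 88.7% and 71.6% with equal-size lists in every region. The shares in equal-size BLA lists without Sham replicate 2 were 98.7% and 94.4%. The count over windows occupied in all 4 BLA lists was 38522 of 38525. Windows of the equal-size lists that parted the replicate or crossed pairings were active elsewhere in 98.7% to 99.1% of cases. Activity elsewhere was therefore not particular to the treatment pairing in these lists.

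The breadth of that activity was smaller than for shared windows in both classes, and the order of the classes depended on the lists. In the equal-size lists FT-held windows were active in a median of 9 other regions, Sham-held windows in 13 and windows of all 4 lists in 23. The share active in 12 or more regions was 39.8% for FT-held, 59.0% for Sham-held and 96.4% for shared windows. In the full lists the medians were 7 regions for FT-held and 6 for Sham-held windows, with 28.9% and 18.4% in 12 or more. Windows of the equal-size BLA lists had medians of 8 and 7 with equal-size lists in every region, and shares of 30.8% and 23.3%. Those of the full BLA lists then had 5 and 3, with 17.3% and 6.73%. Without Sham replicate 2, windows of the equal-size BLA lists had medians of 10 and 9, with 44.9% and 37.9%. In the equal-size BLA lists, windows that parted the replicates or crossed pairs were again intermediate, with a median of 12 regions in each of their 4 classes. In lists of other regions, FT-held windows were occupied in a median of 11 Sham and 21 FT libraries, Sham-held windows in 19 and 26, and shared windows in 39 and 44. In the full lists Sham-held windows were occupied in a median of 10 Sham and 8 FT libraries elsewhere, the reverse order, and FT-held windows in 8 and 17. Of the FT-held windows of the equal-size lists, 262 (3.85%) were occupied in no Sham library outside BLA, and 13 in no library at all. The share in no Sham library outside BLA was 0.655% to 1.42% for windows parting the other pairings. It was 0.571% for Sham-held and 0.013% for shared windows.

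**Figure D4:**
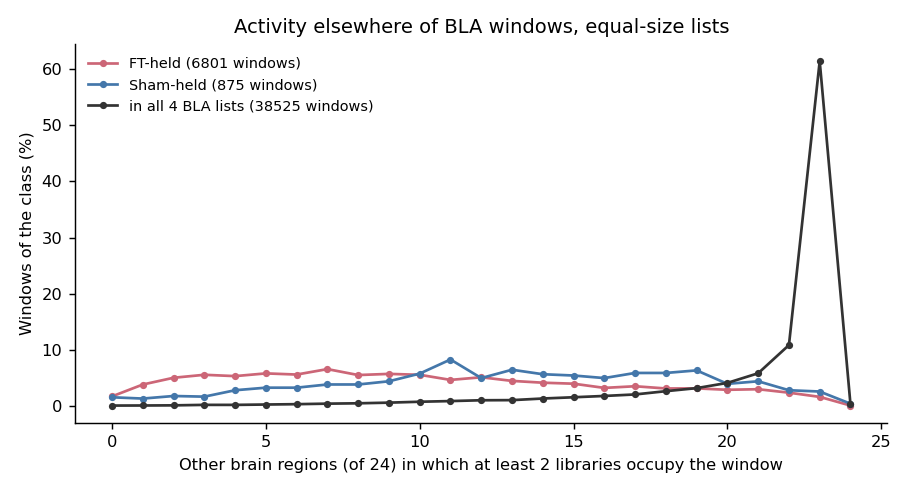
Percentage of FT-held, Sham-held and shared BLA windows (equal-size lists) by the number of other regions, out of 24, in which at least 2 libraries occupied the window. Shared windows pile up near 23 regions, while FT-held and Sham-held windows spread over the whole range with medians of 9 and 13. The habenula held only 0.3% of shared windows, so few windows reach 24 regions.

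FT-held windows were most often active in the nucleus accumbens core (64.4%), CMA (62.9%) and insular cortex (58.0%). Windows occupied in all 4 BLA lists were active there in 95.2%, 97.2% and 94.2% of cases. Sham-held windows were most often active in the nucleus tractus solitarius (76.5%), lateral hypothalamus (75.8%) and raphe (73.0%). The shares for windows occupied in all 4 BLA lists were 93.1%, 95.2% and 93.4%. The order of regions for Sham-held windows depended on the lists. In the full lists these regions stood at 36.8%, 32.7% and 36.3%, and the ventral dentate gyrus at 36.5%. The habenula, with 1 Sham and 1 FT list, held 0.3% of shared windows and bears little on these counts. The region labelled PVN, also with 1 Sham and 1 FT list, held 85.9% of them, and the cause of the low habenula value was not tested. Only 87 shared windows were active in all 24 regions, so counts of regions in effect end at 23.

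In 20 other regions with 2 Sham and 2 FT lists the same comparison could be made, each in lists cut to that region's own shortest. Of the FT-held windows of BLA, 4818 (70.8%) were FT-held in at least 1 of them and 648 (9.53%) were Sham-held in at least 1. For comparison, 40.7% of all other occupied BLA windows and 53.0% of those parting the other pairings were FT-held in at least 1 other region. Recurrence was shallow, as 253 windows (3.72%) were FT-held in 5 or more other regions and the most was 10. Of the Sham-held windows, 331 (37.8%) were Sham-held in at least 1 other region and 269 (30.7%) FT-held. The share Sham-held elsewhere was 12.4% for all other occupied BLA windows and 23.5% for those parting the other pairings. Without Sham replicate 2, 69.6% of FT-held and 25.4% of Sham-held windows were held the same way in at least 1 other region. No library is shared between these comparisons, but the tissue of all regions came from the same treatment groups of animals.

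By count, the overlap of FT-held windows was largest with the nucleus accumbens core, where 1149 windows were FT-held in both regions (16.9% of the BLA windows and 14.5% of those of the core) and 24 were FT-held in BLA and Sham-held in the core. The medial septum shared 1138 windows (16.7% and 10.8%) and the prelimbic cortex 1056 (15.5% and 10.5%). CMA, the neighbouring amygdala region, shared 1030 (15.1% and 13.9%), against 25 in the opposite direction. These regions also had the most FT-held windows of their own among the regions compared. Their totals were 7905 in the core, 10524 in the medial septum, 10058 in the prelimbic cortex and 7395 in CMA. As a share of the other region's FT-held windows, the nucleus accumbens shell (729 windows, 18.2%) and the bed nucleus of the stria terminalis (804 windows, 15.3%) were above the core. At the low end by count, the ventral dentate gyrus shared 92 (1.35% and 7.61%) against 106 in the opposite direction. Sham-held windows were shared most with the dorsal dentate gyrus (82 windows, 9.37% of the BLA windows and 3.70% of its own), followed by the ventral dentate gyrus (62, 7.09% and 3.45%) and CMA (54, 6.17% and 4.20%). No share over all other BLA windows was taken for single regions, so these overlaps are descriptions and cannot be called high or low.

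BLA ranked 5 of the 21 regions with 4 lists by the log2 ratio of the treatment pairing to the other pairings, both in full lists (2.51) and in equal-size lists (1.95). The ratios in equal-size lists ranged from −0.48 in the ventral dentate gyrus to 3.15 in the prelimbic cortex. CMA, with 7395 FT-held and 1286 Sham-held windows in lists of 38423 peaks, followed BLA at 1.81. At equal covered length BLA ranked 3 of 21 at 2.01, behind the medial septum (2.77) and the prelimbic cortex (2.58). The FT-held share of 88.6% in equal-size lists lay within the range of 40.2% to 94.7% over the regions, and that at equal covered length, 58.5%, within 42.9% to 69.2%. The order of neighbouring regions has no error estimate, since each region gives a single value from 4 libraries.

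**Figure D5:**
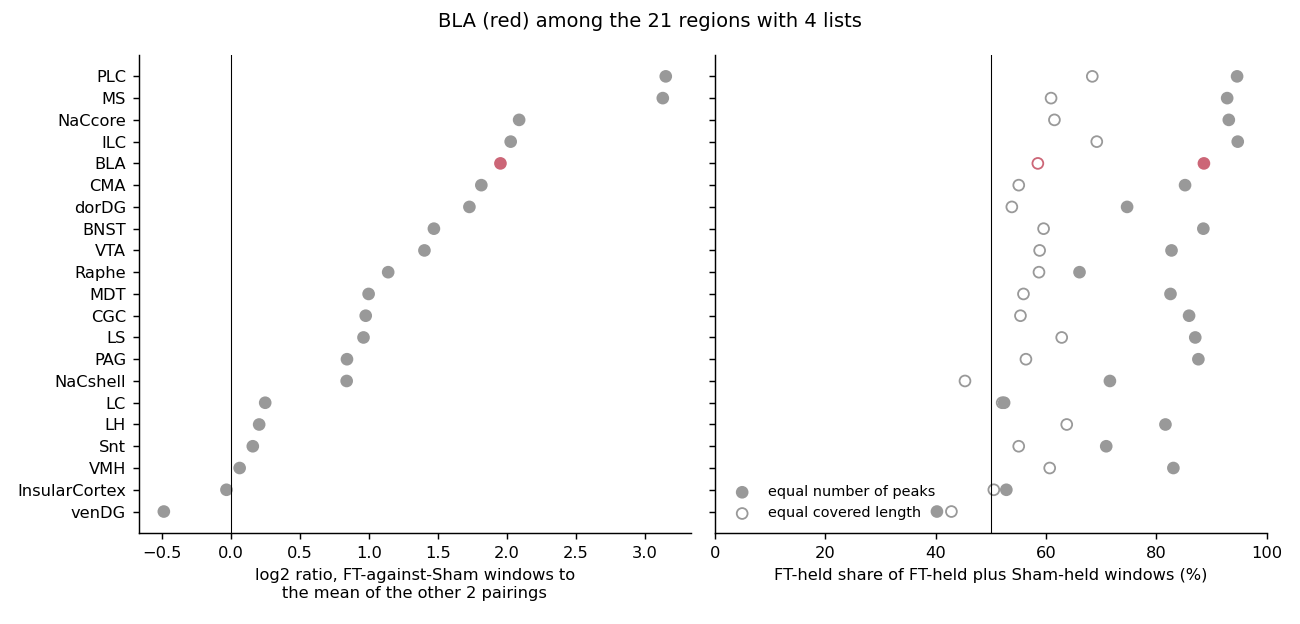
Left, log2 ratio of windows parting FT from Sham to the mean of the replicate and crossed pairings in equal-size lists for the 21 regions with 4 lists. Right, FT-held windows as a percentage of FT-held plus Sham-held windows in lists of equal peak number (filled) and equal covered length (open). BLA (red) lies at 1.95, with FT shares of 88.6% and 58.5%.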

How the data were processed

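H3K27ac ChIP-seq of rat brain punches was deposited as a peak list per library. The authors aligned reads to Rn5 with BWA (version not given in the sources used here) and called peaks in each library with DFilter, against input pooled from equal amounts of FT and Sham DNA. The deposited columns used were position, maximal score, normalised tag count (a score in whole numbers) and −log10 p-value, and the false discovery rate in percent was 0 throughout. No read counts were used, so depth and the precision it gives are unknown.

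Lists were read in Python 3.11.15 with pandas 2.3.3 and numpy 2.4.6. A 1 kb window was occupied when at least 50% covered. Lists were cut by maximal score to 31893 peaks. Treatment, replicate and crossed pairings of the 4 libraries were counted, with exact permutation tests (two-sided for group means, 1 in 3 at best for pairings). In each direction, loci were named from runs of windows unoccupied in full lists of the other treatment, as the 6 best ranked without a peak within 1 kb, the 4 longest, and up to 3 with no peak in another region. Window counting was tested on simulated lists with planted windows and returned every planted count. The members, lists and rules were chosen with earlier results of these data known. Alternatives varied window size, cover, cuts, scales and libraries. Replicate numbers mark libraries processed in parallel per the study's methods, yet same-numbered Sham and FT lists were no closer (Jaccard index 0.707 and 0.607) than differently numbered ones (0.713 and 0.608). Replicates are pools of animals, and libraries may also differ in enrichment and depth. The exact p-values only place the treatment pairing among the 3 pairings of these libraries and measure no spread. Peaks were not assigned to genes, since no Rn5 gene annotation was used.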

Additional observations from a re-analysis of the deposited data

How the results depend on the processing

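Peak number, covered length, peak width and the log2 ratios of the treatment pairing to the other pairings kept their direction under every alternative run, with 1 exception among tag-count ranks. With 2 libraries a group no test passes a threshold, and the p-values say nothing about stability. Counts followed the definition of a window and the length of the lists.

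In full lists, 13361 FT-held and 342 Sham-held windows became 20115 and 613 with any overlap, 6225 and 76 with full cover, 758 and 2 with 5 kb windows, and Sham-held windows numbered 101 with a −log10 p of at least 6. Leaving out 1 library gave 15201 to 29301 FT-held and 582 to 4272 Sham-held windows. In equal-size lists, 6801 FT-held windows became 714 with 5 kb windows, 1851 with 10000 peaks, 3667 with 19378 peaks (the shortest list of the series), 3347 at equal covered length and 2388 for centres. Sham-held windows, 875 at first, became 1767 with any overlap, 111 with full cover, 3 with 5 kb windows, 2372 at equal covered length and 1445 for centres. Leaving out 1 library gave 8585 to 15699 FT-held and 1469 to 4691 Sham-held windows, and 11834 and 5707 without Sham replicate 2 at 43143 peaks a list. The log2 ratio in equal-size lists was 0.22 without either FT replicate and 0.93 without Sham replicate 2.

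Windows with a higher tag-count percentile in FT, 8727 at first, became 21502 with full-list percentiles and 17198 per base, and those higher in Sham, 7535 at first, became 1181 and 3245. Leaving out 1 library gave 12284 to 15635 and 11199 to 14624. The log2 ratio of that comparison, 0.55, was 1.26 and 1.18 under these scales and from −0.19 (without FT replicate 2, a reversal) to 0.36 with 1 library left out, and the cause was not tested. Matched elements wider in Sham numbered 105 at first, 40 in equal-size lists and 2528 without Sham replicate 2. Activity elsewhere of FT-held windows, 98.4%, became 99.8% with at least 1 library, 96.1% with Sham libraries alone, 97.3% with equal-size lists and 98.7% without Sham replicate 2, and that of Sham-held windows, 98.5%, became 99.8%, 99.4%, 93.6% and 94.4%.

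With the replicate block, in which the crossed pairing alone was the reference, the log2 ratios were 2.32 for full lists, 1.85 for equal-size lists and 0.70 for ranks, and the blocked log2 ratio of peak number was 0.46. The paired analysis changed no direction.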

Other observations

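Some stretches of chromosome were dense in FT-held windows. The megabase of chromosome 6 from 133000001 to 134000000 held 20 of them in equal-size lists, among 118 occupied windows of which 55 were occupied in all 4 lists. The megabase of chromosome 17 from 25000001 to 26000000 held 19 among 118. No megabase held more than 4 Sham-held windows. These megabases were picked for their counts, so the values are descriptions.

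Among matched elements of the full lists, 259 of 28108 had a tag-count percentile at least 25 points higher in both FT lists than in both Sham lists, and 2 had the reverse. Percentiles of full lists are shifted by list length, and the elements named next were chosen after their values were seen. At chr5:151951364-151953435 the tag count was 3 in both Sham lists and 7 in both FT lists, with peak widths of 1100 bp and 1200 bp against 2000 bp and 1900 bp. At chr10:31222246-31224901 the tag counts were 3 and 3 against 7 and 6, with widths of 2300 bp and 2200 bp against 2500 bp and 2600 bp, so the tag count differed where the width hardly did. In the other direction, at chr8:45860266-45861420 the tag count was 5 in both Sham lists and 4 in both FT lists, with widths of 800 bp and 700 bp against 400 bp and 500 bp.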
